A study of Mus musculus with 26 samples.

Results

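Promoter peaks of the MaTAR25 ChIRP-seq list made with the whole oligo pool in 4T1 cells were described. They were chosen by their annotation alone: of the 76806 peaks in the list, 2927 carry the deposited annotation promoter-TSS (3.81%, 95% Wilson interval 3.68 to 3.95%). Of these 2927 peaks, 2918 have a nearest transcript that belongs to a gene of the GENCODE vM21 annotation of GRCm38, and they fall on 2813 genes. Of the 2813 genes, 2455 are in the RNA-seq count files and 1237 passed the filter on low counts and were tested. 4T1 is a mouse mammary tumor cell line of the BALB/c strain, and MaTAR25 is a long non-coding RNA whose gene is listed as 1200007C13Rik. The ChIRP-seq series holds 2 total-pool, 3 even-pool and 2 odd-pool libraries of 4T1 cells and 2 total-pool libraries of NDL cells, which are mammary tumor cells that the study calls MMTV-Neu-NDL and whose genotype the labels give as MMTV-PyMT. Pulldowns with oligos to Ppib, the RNA of cyclophilin B, were the control, with 1 library in each cell type. RNA-seq was made from 2 control libraries of 4T1 cells given a guide RNA to Renilla luciferase, and from 3 KO1 and 4 KO2 libraries, in which CRISPR/Cas9 removed the MaTAR25 start site on both alleles. KO1 and KO2 are each a single clone, so the effect of the deletion and the make-up of a clone cannot be told apart within a clone. The labels do not say whether the RNA-seq libraries of a group came from separate cultures, so p-values measure only the spread between these libraries.

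In ChIRP (chromatin isolation by RNA purification), biotinylated DNA oligos antisense to an RNA are hybridised to crosslinked chromatin, and the DNA that comes down with the RNA is sequenced. Because an oligo can also pair with DNA that resembles the RNA, the oligos are divided into an odd and an even pool that share no oligo, and a region held by RNA is meant to appear with both. A promoter is the stretch around a transcription start site on which RNA polymerase and transcription factors assemble, and many mammalian promoters lie in CpG islands, which are stretches rich in G, C and the dinucleotide CG. Tns1, which encodes tensin 1, a protein that ties integrins at focal adhesions to actin filaments, is the gene that the study's title names.

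The 14 oligos to MaTAR25 are the sequences against which the peaks were searched on both strands, and 762 of the 2927 promoter peaks (26.0%, interval 24.5 to 27.7%) contained an exact match to one of them over 12 bases or more. The 4 oligos with the most matched promoter peaks are shown 5′ to 3′, with the 12-base stretch found in the most promoter peaks in capitals.
oligo 12: aataGGGAGAAGGGAGgctc
oligo 4: caggtGGTGGAGATGGAatg
oligo 5: gaaaGGAAACACCCAGgtca
oligo 6: aGTCACAGAGAAGgacggcg
Oligo 12 was matched in 215 promoter peaks (7.35%), oligo 4 in 144, oligo 5 in 83 and oligo 6 in 79. The other 10 oligos were each matched in 9 to 45 promoter peaks. The capitalised stretch of oligo 12 alone was in 112 promoter peaks, that of oligo 6 in 37, that of oligo 4 in 36 and that of oligo 5 in 20.

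The 8 highest-scoring promoter peaks and the peak at the MaTAR25 gene itself are shown as windows of 121 bases of the plus strand of GRCm38, centred on the longest match to a MaTAR25 oligo, which is in capitals.
Gm7281, chr1:85342185-85342305: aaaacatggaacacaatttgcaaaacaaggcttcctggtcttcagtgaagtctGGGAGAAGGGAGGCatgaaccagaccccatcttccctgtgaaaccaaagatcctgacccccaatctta
Thap6, chr5:91963549-91963669: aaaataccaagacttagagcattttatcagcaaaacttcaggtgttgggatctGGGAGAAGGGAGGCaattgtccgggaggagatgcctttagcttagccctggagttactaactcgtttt
Gm36447, chr5:150822317-150822437: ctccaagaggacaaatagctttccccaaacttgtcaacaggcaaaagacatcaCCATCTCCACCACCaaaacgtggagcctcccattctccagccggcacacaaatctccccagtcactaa
1810019D21Rik, chr8:106137390-106137510: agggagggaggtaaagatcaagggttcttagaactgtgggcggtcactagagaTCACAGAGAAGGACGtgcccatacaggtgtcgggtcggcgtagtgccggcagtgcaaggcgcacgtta
Manf, chr9:106891856-106891976: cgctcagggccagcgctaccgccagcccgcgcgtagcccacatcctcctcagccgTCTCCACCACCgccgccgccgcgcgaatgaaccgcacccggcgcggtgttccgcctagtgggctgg
Gm26644, chr19:44696096-44696216: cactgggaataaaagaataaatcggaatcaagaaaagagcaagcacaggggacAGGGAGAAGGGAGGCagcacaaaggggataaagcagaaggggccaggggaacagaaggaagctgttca
Cd200r2, chr16:44866543-44866663: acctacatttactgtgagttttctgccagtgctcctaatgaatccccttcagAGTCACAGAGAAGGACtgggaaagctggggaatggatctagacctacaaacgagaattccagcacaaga
Gphn, chr12:78682345-78682465: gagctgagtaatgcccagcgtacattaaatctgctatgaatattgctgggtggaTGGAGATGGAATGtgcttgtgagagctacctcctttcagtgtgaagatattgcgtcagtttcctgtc
1200007C13Rik, chr2:167833547-167833667: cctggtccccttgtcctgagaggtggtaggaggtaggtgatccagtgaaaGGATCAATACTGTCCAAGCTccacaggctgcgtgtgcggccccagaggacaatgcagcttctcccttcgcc
Of these windows, those of Gm7281, Thap6 and Gm26644 hold 14 or 15 bases of oligo 12, those of Gm36447, Manf and Gphn 14, 11 and 13 bases of oligo 4, and those of 1810019D21Rik and Cd200r2 15 and 16 bases of oligo 6. The MaTAR25 window holds the whole of oligo 1, 20 bases, since the peak covers the start of the RNA that the oligos were made to. Next to it the longest match in any promoter peak was 17 bases. Of the 762 matches, 391 were 12 bases long, 236 were 13, 99 were 14 and 30 were 15.

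Matches of this length were rarer in DNA outside the peaks. Such a match was present in regions of the same length 10 kb away from the promoter peaks in 39 of 2924 cases (1.33%, interval 0.98 to 1.82%). It was also in 437 of 47694 (0.916%) windows of 500 bp at the outermost start site of genes. These were kept where no peak lay near that site and are called promoter windows without a peak. At 14 bases or more the shares were 4.61% of the promoter peaks, 0.0684% of the regions 10 kb away and 0.0273% of the promoter windows without a peak. The 8 Ppib oligos, searched in the same way, gave the opposite order, with 11 promoter peaks matched (0.376%) against 26 regions 10 kb away (0.889%). The peaks were called over the Ppib pulldown, so DNA that the Ppib oligos took down would tend to be left out of the list. The Ppib shares are therefore no independent control. The other 73879 peaks of the list were matched to MaTAR25 oligos in 24.1% of cases (interval 23.8 to 24.4%), next to 26.0% of the promoter peaks. Matches lay close to the middle of the peaks. The median distance of the match centre from the peak centre was 71.8 bp, and 565 of 762 matches (74.1%, interval 70.9 to 77.1%) lay within 100 bp of it. In the regions 10 kb away the median distance was 133 bp, and 17 of 39 matches lay within 100 bp.

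**Figure D1:**
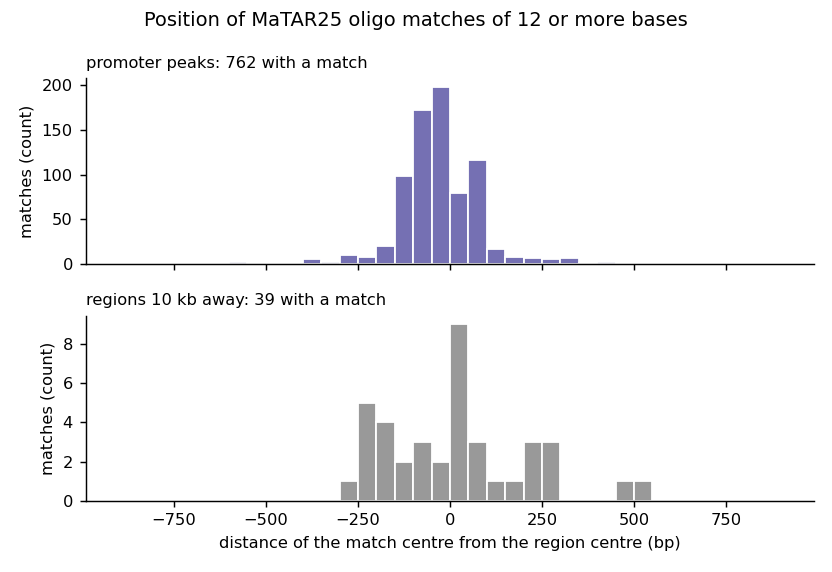
Distance in bp of the centre of the longest MaTAR25 oligo match (at least 12 bases) from the centre of the region, as counts in 50 bp bins, for the 762 matched promoter peaks (top) and the 39 matched regions 10 kb away (bottom, with its own axis). In the promoter peaks 565 matches sit within 100 bp of the centre.

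Runs of TGG, or of CCA on the other strand, were the other sequence feature searched. A run of at least 4 repeats was in 98 promoter peaks (3.35%, interval 2.76 to 4.06%), against 0.513% of the regions 10 kb away, 0.417% of the promoter windows without a peak and 4.17% of the other peaks of the list. The runs of 4 peaks are shown in capitals, each with 20 flanking bases on either side of the plus strand of GRCm38, because Tns1 is the gene named by the study, Gm28512 and Krt5 have the highest scores among the peaks with a run of at least 6 repeats, and the Jph1 peak has the longest run.
Tns1, chr1:74037417-74037474: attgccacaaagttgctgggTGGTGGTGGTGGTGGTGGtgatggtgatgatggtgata
Gm28512, chr1:153750532-153750592: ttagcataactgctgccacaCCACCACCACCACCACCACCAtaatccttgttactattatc
Krt5, chr15:101712660-101712717: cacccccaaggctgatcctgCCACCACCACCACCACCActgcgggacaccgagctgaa
Jph1, chr1:17098237-17098336: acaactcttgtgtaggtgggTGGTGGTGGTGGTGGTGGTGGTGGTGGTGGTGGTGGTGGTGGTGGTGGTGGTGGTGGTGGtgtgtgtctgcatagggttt
The Tns1 run has 6 repeats, that of Gm28512 7, that of Krt5 6 and that of Jph1 20. Jph1 encodes junctophilin 1, which joins the plasma membrane to the endoplasmic reticulum, and its peak had a score of 37.3, below the median of the promoter peaks. The 5-letter motif GGTGG, which the runs contain, occurred on either strand in 82.3% of the promoter peaks, 71.4% of the regions 10 kb away and 67.3% of the promoter windows without a peak, at 4.32, 2.77 and 2.82 occurrences per kb. The other peaks of the list held it in 77.3%, at 3.96 per kb.

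The score that HOMER gave each peak ran from 14.9 to 1782.5 in the promoter peaks, with a median of 49.4 (quartiles 28.3 and 100.1). The other peaks of the list had a median of 41.6 (quartiles 25.1 and 85.2), and exon peaks, the class closest in score, 49.8. Promoter peaks were 3 of the 100 highest-scoring peaks and made up 3.80% of the 1001 and 4.34% of the 10023 highest, next to 3.81% of the whole list. Their median length was 500 bp, which was also their shortest, and 1662 of them had this length. The peak centre lay between 1000 bp upstream and 100 bp downstream of the nearest start site in 2764 peaks (94.4%). It was more than 500 bp upstream of that start site in 1093 peaks, up to 500 bp upstream in 1349 and at or beyond it in 485. At least 2 genes had start sites within 1000 bp of the centre in 286 peaks (9.77%), so the nearest gene is not the only candidate there.

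The highest-scoring promoter peak lay at chr1:85342013-85342637, with its centre at -239 bp from the start site of the pseudogene Gm7281 (negative is upstream) and a score of 1782.5. It was followed by the peak at Thap6, which the annotation lists as a transcribed unitary pseudogene, with 965.8. The lincRNA Gm36447 had 856.3 and 1810019D21Rik, a non-coding transcript that overlaps Esrp2, 837.1. Manf, which encodes a secreted protein of the endoplasmic reticulum stress response, had the highest score of the protein-coding genes, 776.3, with the peak centre 23 bp downstream of its start site at chr9:106891575-106892337. Gphn, the gene of the scaffold protein gephyrin, had 730.7, and Mtmr2, the gene of a lipid phosphatase, 719.8 with its centre at -1 bp from the start site. The MaTAR25 peak at chr2:167833298-167833922 had 671.9 and tied for place 14 with that of the adenylate kinase gene Ak5. Of the 20 highest, only the peak of Ptbp3, which encodes an RNA-binding splicing regulator, had no match of 10 bases or more to an oligo. The Pvt1 promoter, that of a long non-coding RNA beside Myc, had a peak of 387.0 at chr15:62038627-62039254 and the Tns1 promoter one of 98.1 at chr1:74036956-74037805, place 746. No promoter peak was called at Has2 or at Ppib. A promoter peak can lie at the start of any annotated transcript, so also inside a gene. Among others, the peaks of Gphn, Ak5, Ptbp3 and Tns1 lay inside their genes, away from the outermost start site. Gphn spans 78226379 to 78684772, and its peak starts at 78681782. RNA-seq counts are for whole genes, so they do not give the level of the transcript that starts at a peak.

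Sharing with the other 3 lists was counted as an overlap of at least 1 bp. Of the promoter peaks, 1752 (59.9%, interval 58.1 to 61.6%) overlapped a peak of the even list, 1062 (36.3%, 34.6 to 38.0%) one of the odd list and 1883 (64.3%, 62.6 to 66.0%) one of the NDL list. Of the other peaks of the total-pool list, 61.1%, 37.7% and 66.5% did so. The even list holds 64607 peaks, the odd list 61311 and the NDL list 70329. The even list has 8877 peaks on chromosome 2 (13.7% of its peaks, next to 7.38% in the total-pool list), where 69.6% of the promoter peaks were shared with it. It has no peak on chromosome 3, where 0 of 174 promoter peaks could be shared (up to 2.16%), and without chromosomes 2 and 3 the even share was 63.1%. Since each list gives 1 set of peaks and no value per replicate, no test between lists was made and the intervals cover counting error only. In both the even and the odd list lay 500 promoter peaks (17.1%), in all 3 other lists 396 (13.5%, interval 12.3 to 14.8%) and in none 330 (11.3%, interval 10.2 to 12.5%). The largest class, 868 peaks (29.7%), was shared with the even and the NDL list but not with the odd list, and the Tns1 peak belonged to it.

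The pool whose list held a promoter peak went with the pool of the oligo matched. Of the 243 promoter peaks that matched only oligos of the odd pool, 231 (95.1%, interval 91.6 to 97.2%) overlapped the odd list and 55 (22.6%, interval 17.8 to 28.3%) the even list. Of the 505 that matched only oligos of the even pool, 402 (79.6%, interval 75.9 to 82.9%) overlapped the even list and 150 (29.7%, interval 25.9 to 33.8%) the odd list. Without chromosomes 2 and 3 the even-pool matches overlapped the even list in 85.3% of cases. The 2165 promoter peaks with no match of 12 bases overlapped the even list in 59.4% and the odd list in 30.9%. The NDL list, made with the whole pool, held 65.4% of the peaks matching odd oligos, 75.4% of those matching even oligos and 61.5% of those with no match. Peaks with a TGG run overlapped the even list in 82.7% (interval 74.0 to 88.9%) and the odd list in 21.4% (interval 14.5 to 30.5%). The other classes of the total-pool list gave the same order, with 95.7% of 6156 odd-matched peaks in the odd list and 82.5% of 11456 even-matched peaks in the even list.

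**Figure D2:**
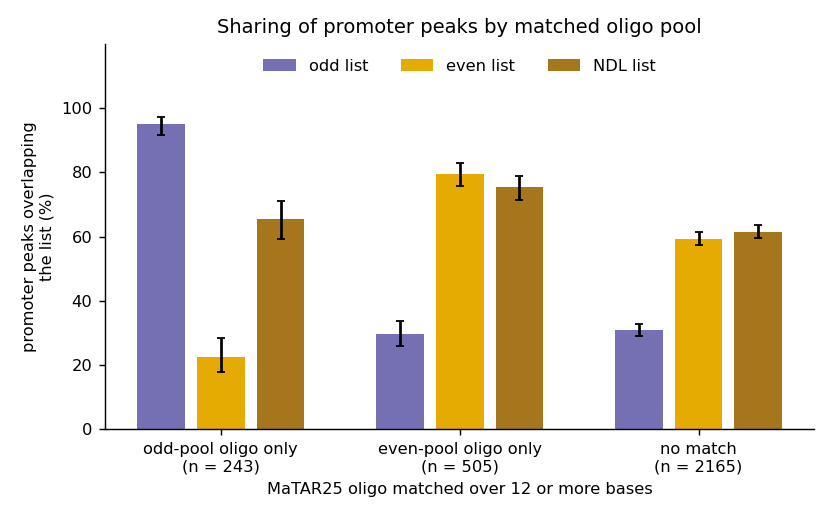
Percent of promoter peaks that overlap the odd, even and NDL lists by at least 1 bp, for peaks matching only odd-pool oligos, only even-pool oligos or none over 12 bases. Bars are shares with 95% Wilson intervals; odd-matched peaks reach 95.1% in the odd list and even-matched peaks 79.6% in the even list.

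Scores rose with the number of lists that held a peak. The median score was 25.3 for promoter peaks in none of the other 3 lists, 35.7 in 1, 58.1 in 2 and 125.8 in all 3. Of the promoter peaks with a score of at least 100, 75.9% overlapped the even, 54.0% the odd and 79.0% the NDL list. The median score was 84.0 for peaks matched to even oligos, 53.8 for those matched to odd oligos and 43.6 for those with no match. The 10 highest-scoring promoter peaks in all 4 lists were those of Gm7281, Thap6, Gm36447, 1810019D21Rik, Manf, Gm26644, Gphn, Mtmr2, Gm23625 and Gm47037. The MaTAR25 peak was in all 4 lists too, and the Ak5 peak, on chromosome 3, was in the NDL list but in neither the even nor the odd list.

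**Figure D3:**
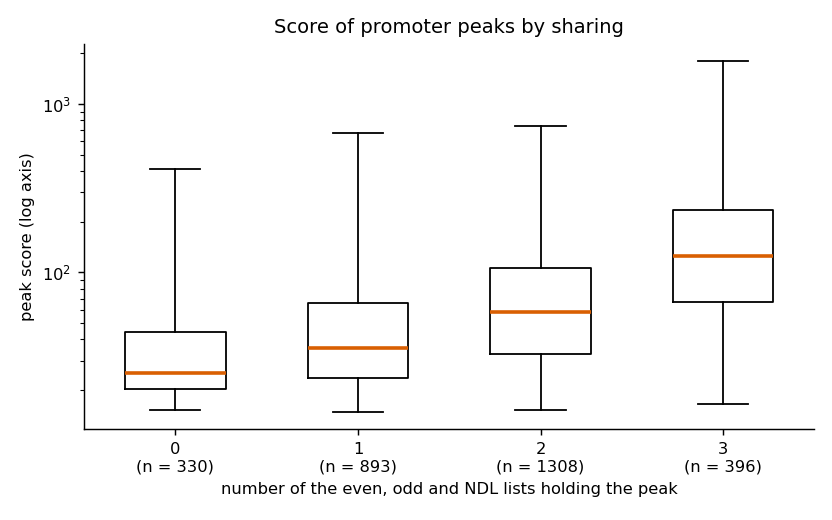
Peak score (log axis) of the 2927 promoter peaks by the number of the even, odd and NDL lists that hold them. Boxes are quartiles with the median in orange and whiskers reach the lowest and highest score; the median runs from 25.3 in none to 125.8 in all 3.

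Of the genes with a promoter peak, 1697 were protein-coding, which is 7.70% (interval 7.36 to 8.06%) of the protein-coding genes of the annotation, against 5.07% of all its 55536 genes. The share was 3.57% for lincRNA genes, 4.06% for antisense genes, 2.89% for processed pseudogenes, 2.99% for miRNA genes and 2.92% for snoRNA genes. Genes with more annotated transcripts had a promoter peak more often. Of the protein-coding genes with 1 annotated transcript 3.08% had one, of those with 2 to 4 transcripts 5.65% and of those with 5 or more 12.2%. Protein-coding genes with a promoter peak had a median of 6 annotated transcripts and those without 3. More than 1 promoter peak fell on 101 genes. Ank3, the gene of the membrane adaptor ankyrin-G, had 4 peaks, with scores of 109.9, 82.4, 49.4 and 42.0, and Ank2, the gene of ankyrin-B, and Pde2a, the gene of a cyclic nucleotide phosphodiesterase, had 3 each. By chromosome, the share of genes with a promoter peak ran from 2.41% on chromosome X and 2.72% on chromosome 18 to 6.51% on chromosome 11 and 6.53% on chromosome 5.

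CpG island-like sequence was rarer in the promoter peaks than in the promoter windows without a peak and more frequent than in the rest of the list. The windows lie at the outermost start site of each gene, while promoter peaks can lie at internal start sites. The peaks and the windows therefore differ in the kind of start site too. A GC content of at least 50% with an observed over expected CpG of at least 0.6 was met by 87 of the 1796 promoter peaks of protein-coding genes (4.84%, interval 3.94 to 5.94%), against 3604 of 19255 promoter windows of protein-coding genes without a peak (18.7%, interval 18.2 to 19.3%). The median observed over expected CpG was 0.22 in these promoter peaks and 0.34 in the windows, while the median GC content was 47.6% and 48.0%. Over all promoter peaks 115 (3.93%) met both limits, against 0.154% of the other peaks of the list and 1.37% of the regions 10 kb away. Looked at after the values were seen, the 115 CpG island-like promoter peaks had a median score of 93.4, next to 47.9 for the rest, yet 39 of them (33.9%, interval 25.9 to 43.0%) were in none of the other lists, against 10.3% of the rest, and 46.1% were in the NDL list, against 65.1%. Among all promoter peaks with a score of at least 100, 26 of 733 (3.55%, interval 2.43 to 5.15%) were in no other list, next to 1.32% of the other peaks of such a score. Of the 26, 8 were on chromosome 3. The 26 included the peaks of Junb, a subunit of the AP-1 transcription factor, with a score of 141.7, of Ssr3, a subunit of the translocon-associated complex, with 143.6, and of Lmo4, a LIM-domain transcription regulator, with 190.7, named after their values were seen. The Ssr3 and Lmo4 peaks are on chromosome 3, where the even list has no peak. Junb, Ssr3 and Lmo4 had mean levels of 584, 397 and 98.8 CPM (read counts scaled to equal library sizes) in control cells. They do not stand for all 26, since the highest of these peaks, with 408.2, belonged to Piwil4, at a mean of 0.28 CPM. Of the 26 peaks, 13 belonged to genes at 10 CPM or more, and the same share over all promoter peaks is not given here.

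The RNA-seq libraries held 25367211 to 61110585 gene counts. Epcam, Krt7, Krt8, Krt18 and Cdh1, markers of mammary epithelium, were at 104 CPM or more in all 9 libraries, and Ptprc, Cd3e, Pecam1, Adipoq and Plin1, markers of blood cells, endothelium and adipocytes, stayed under 1 CPM in each. Cd68, a macrophage marker, ran from 1.77 to 28.3 CPM and the endothelial marker Cdh5 reached 1.39 CPM. MaTAR25 itself was at 0.768 and 0.915 CPM in the control libraries, at 0.0319, 0.232 and 0 CPM in KO1 and at 0.307, 0.0421, 0.203 and 0.123 CPM in KO2. The 2 control libraries lay above all 7 KO libraries (log2 fold change -2.63, standard error 0.82, adjusted p = 0.0561, edgeR's quasi-likelihood test). The call was lost without either control library, with a highest adjusted p of 0.300.

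The genes of promoter peaks were more often expressed in control cells than other genes, and the difference went with the number of annotated transcripts. A mean of at least 1 CPM in the 2 control libraries was reached by 1040 of the 2455 promoter-peak genes in the count files (42.4%, interval 40.4 to 44.3%), against 26.4% of all 45318 genes. Among protein-coding genes it was 1014 of 1679 (60.4%, interval 58.0 to 62.7%) with a promoter peak and 10060 of 19899 (50.6%, interval 49.9 to 51.2%) without. At equal numbers of annotated transcripts the shares were close. With 5 or more transcripts 75.3% of the genes with a promoter peak and 76.2% of those without were detected, with 2 to 4 transcripts 41.1% and 42.7%, and with 1 transcript 14.8% and 19.5%. Per kb of exon length, detected protein-coding genes had a median of 9.50 and 9.75 RPKM in the 2 control libraries with a promoter peak and 8.63 and 8.72 RPKM without. No counts in any of the 9 libraries were found for 623 promoter-peak genes (25.4%), among them Gm7281, the gene of the highest-scoring peak, and Krt5, a basal keratin with a peak of 570.2. An observed count of 0 still allows an expected count of up to about 3 in a library.

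**Figure D4:**
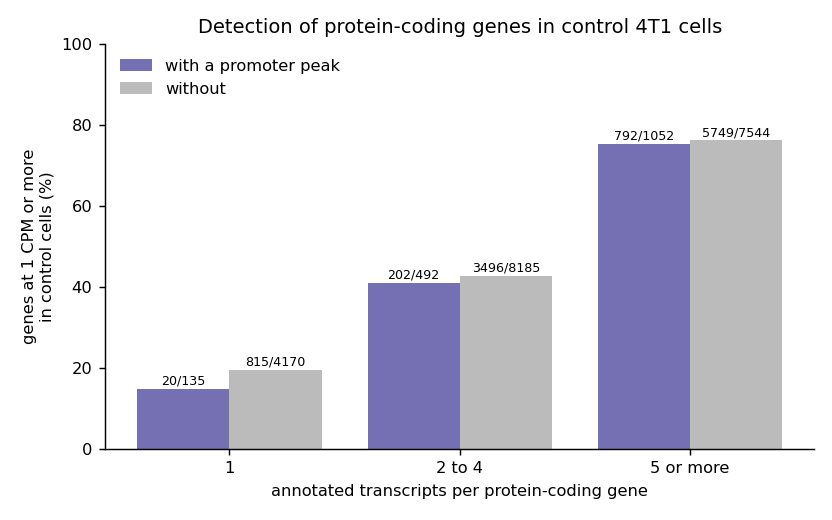
Percent of protein-coding genes at a mean of 1 CPM or more in the 2 control libraries, by the number of annotated transcripts, with (purple) and without (grey) a promoter peak; fractions above the bars are genes detected over genes in the count files. Bars of the same transcript class are close, 75.3% and 76.2% at 5 or more.

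Between KO and control cells, 126 of the 1237 tested promoter-peak genes were higher and 160 lower in KO cells at an adjusted p under 0.1 (edgeR's quasi-likelihood test). The 286 called genes are 23.1% of those tested (interval 20.9 to 25.6%), next to 22.6% of all 15023 genes tested, so the share was near that of genes in general. Higher calls made up 10.2% of the promoter-peak genes and 11.9% of all genes, and lower calls 12.9% and 10.7%. The median log2 fold change was 0.01 (quartiles -0.47 and 0.49) in the promoter-peak genes and 0.06 (quartiles -0.42 and 0.56) in all genes. Among the genes of the peaks with a score of at least 100, 34 were higher and 61 lower of 369 tested (25.7% called, interval 21.5 to 30.4%). Genes of peaks in all 4 lists gave 19 higher and 25 lower of 171, and genes of peaks in no other list 21 higher and 19 lower of 158. Genes of peaks with an oligo match of 12 bases gave 32 higher and 41 lower of 334. The ranges of the KO and control libraries were apart in 433 promoter-peak genes (35.0%), next to 34.4% of all genes. The count fell when a control library was left out, as it did over all genes, to 39 promoter-peak genes without control replicate 1 (3.04%, next to 2.95% of all genes) and 50 without control replicate 2 (3.86%, next to 3.61%), each leaving 1 control library whose spread was taken from the KO libraries. In KO1 alone 174 promoter-peak genes were higher (14.1%, next to 15.9% of all genes) and 231 lower (18.7%, next to 15.7%), 405 in all (32.7%, next to 31.6%). In KO2 alone 193 were higher (15.6%, next to 16.5%) and 227 lower (18.4%, next to 15.0%), 420 in all (34.0%, next to 31.4%). Both clones were set against the same 2 control libraries. Between the clones 272 promoter-peak genes differed (22.0%, next to 19.6% of all genes).

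Of the 286 called genes, 244 had a mean of at least 1 CPM, no overlap between KO and control libraries and the same direction in both clones. Of these, 106 were higher and 138 lower in KO cells. The same count over all 3392 called genes is not given here. The 244 therefore served to choose genes to name and show nothing particular to promoter-peak genes. The 8 that fell most began with Dcdc2a, which encodes a doublecortin-domain protein that binds microtubules. It was at 7.66 and 5.12 CPM in the control libraries, at 0.223, 0.298 and 0.406 CPM in KO1 and at 0.446, 0, 0.362 and 0.0613 CPM in KO2. The control libraries were above every KO library, and the log2 fold change was -4.61 (SE 0.73, adjusted p = 0.0041, edgeR). Its promoter peak, score 195.0, had its centre at -998 bp from the start site. Col11a2, a fibrillar collagen gene, was at 45.1 and 26.6 CPM in control cells, at 3.44, 1.86 and 3.27 CPM in KO1 and at 2.59, 2.78, 2.01 and 4.25 CPM in KO2. Its log2 fold change was -3.63 (standard error 0.31, adjusted p = 0.00047, edgeR), close in KO1 (-3.64) and KO2 (-3.62). Baiap2l1, the gene of a membrane-bending protein that links to actin, fell from 190 and 201 CPM to 17.7 to 33.5 CPM over the KO libraries, a log2 fold change of -2.89 (SE 0.21). Its peak scored 21.2, was in no other list and lay inside the gene, away from the outermost start site.

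Slc7a11, the cystine and glutamate exchanger that feeds glutathione synthesis, and Gpt2, the mitochondrial alanine aminotransferase, fell in both clones and further in KO2. Slc7a11 was at 182 and 218 CPM in control cells, at 43.1, 67.3 and 20.1 CPM in KO1 and at 15.7, 9.60, 13.5 and 10.6 CPM in KO2. Gpt2 was at 278 and 295 CPM in control cells, at 89.1, 101 and 36.2 CPM in KO1 and at 19.7, 24.5, 27.4 and 13.4 CPM in KO2. In both genes no KO library reached a control library. The log2 fold changes were -2.96 for Slc7a11 and -2.69 for Gpt2. The other 3 were Mpped2, Postn, the gene of the matrix protein periostin, and P2rx3, the gene of an ATP-gated ion channel, at log2 fold changes of -4.08, -3.53 and -2.91. P2rx3 overlaps Ssrp1 on the opposite strand, so its reads and those of Ssrp1 may not be told apart. Without a control library Slc7a11, Gpt2, Mpped2, Postn and P2rx3 were no longer called, at adjusted p-values of 0.102 to 0.372 (edgeR).

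The 8 that rose most were led by Dmd, the gene of dystrophin, with a fitted rise of 4.07 on the log2 scale (SE 1.34, adjusted p = 0.0684, edgeR). The Dmd peak lay inside the gene, away from the outermost start site. So did the peaks of Ung, Spns3, Slc4a8, Mcm3 and Cubn. Among the genes that fell, those of Mpped2, Postn, P2rx3 and Baiap2l1 and the highest peak of Col11a2 did so too. The peaks of Dcdc2a, Slc7a11, Gpt2, Tnfrsf23 and Fanca lay near the outermost start site. The control libraries were far apart in Dmd at 1.08 and 0.030 CPM. The gene was at 16.2, 19.1 and 15.4 CPM in KO1 and at 3.76, 5.05, 5.67 and 1.51 CPM in KO2. Its log2 fold change became 3.15 when control replicate 2 was left out and 8.16 when control replicate 1 was, in both cases without a call. Tnfrsf23, the gene of a decoy receptor of the death ligand TRAIL, rose from 3.25 and 4.73 CPM to between 15.98 and 40.7 CPM (log2 fold change 2.72). Ung, the uracil glycosylase of base excision repair, was at 7.75 and 7.01 CPM in control cells, at 66.4, 51.9 and 46.5 CPM in KO1 and at 40.0, 28.5, 41.3 and 34.0 CPM in KO2 (log2 fold change 2.58, standard error 0.34, adjusted p = 0.0020, edgeR). Fanca, a core member of the Fanconi anaemia repair pathway, rose from 25.1 and 33.8 CPM to 90.4 to 116 CPM (log2 fold change 1.78, SE 0.18). Mcm3, a subunit of the replicative helicase, rose by 1.82. Spns3, Slc4a8, the gene of a bicarbonate transporter, and Cubn, the gene of the endocytic receptor cubilin, rose by 2.15, 1.83 and 1.79, and none of these 3 was called without a control library. Fanca overlaps Zfp276, and Baiap2l1 overlaps Bri3, each on the opposite strand, so the counts of both are uncertain where the genes overlap. The peaks of the 8 genes that rose scored 18.1 to 43.2, below the median of the promoter peaks, and Spns3 and Cubn alone had an oligo match of 12 bases or more. Of the 8 that fell, Mpped2, Postn, Slc7a11, P2rx3 and Baiap2l1 scored below that median too, at 20.4 to 30.6. Dcdc2a, Col11a2 and Gpt2 scored above it, at 105.6 to 195.0. In the highest peaks of the genes that fell, Dcdc2a alone had such a match.

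**Figure D5:**
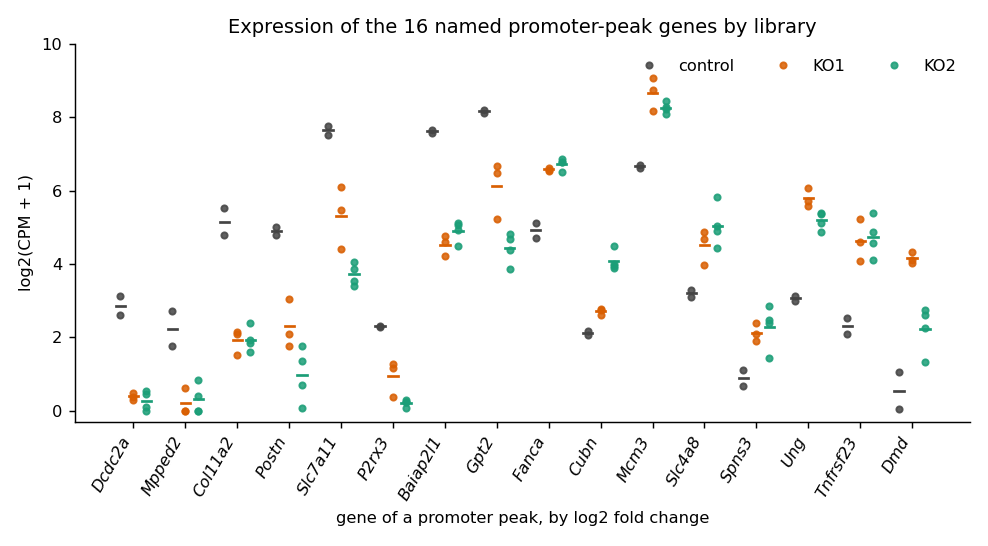
Expression as log2(CPM + 1) of the 8 promoter-peak genes that fell most and the 8 that rose most, ordered by log2 fold change from the left. Points are libraries (2 control, 3 KO1, 4 KO2) and bars are group means. In each gene all 7 KO libraries lie on one side of both control libraries, which the choice of these genes required.

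The genes of the 20 highest-scoring promoter peaks included 6 tested protein-coding genes. Manf rose from 48.0 and 54.5 CPM to 86.5 to 186 CPM (log2 fold change 1.47, standard error 0.26, adjusted p = 0.0070, edgeR), and Gphn fell from 58.3 and 61.1 CPM to 22.5 to 33.4 CPM (log2 fold change -1.08, standard error 0.17, adjusted p = 0.0037, edgeR). For Mtmr2 the log2 fold change was 0.36 (adjusted p = 0.150, edgeR) and for Washc2, the gene of a WASH complex subunit, 0.22 (adjusted p = 0.399, edgeR). Ak5 was at 0.33 and 0.21 CPM in control cells, at 0.19 to 0.37 CPM in KO1 and at 0.50 to 2.59 CPM in KO2 (adjusted p = 0.297, edgeR). Ptbp3 fell from 339 and 323 CPM to 176 to 274 CPM (log2 fold change -0.56, adjusted p = 0.0493, edgeR). Among the non-coding genes, 1810019D21Rik had a log2 fold change of -1.58 (adjusted p = 0.0645, edgeR), Thap6 of -0.77 (adjusted p = 0.266, edgeR) and Gm5422 of 1.37 at under 1 CPM in every library (adjusted p = 0.0390, edgeR). Manf overlaps Rbm15b on its own strand and Dcaf1 on the other, and 1810019D21Rik and Thap6 overlap Esrp2 and Rchy1 on the opposite strand, so their counts are uncertain. The call of Gphn held without either control library and that of Manf without control replicate 2 but not 1 (adjusted p = 0.118, edgeR), while those of Ptbp3, 1810019D21Rik and Gm5422 were lost without either.

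Of the other genes that the study names, Pvt1 fell from 37.5 and 24.5 CPM to 12.3, 15.3 and 16.4 CPM in KO1 and 20.6, 18.2, 18.9 and 17.98 CPM in KO2 (log2 fold change -0.86, standard error 0.23, adjusted p = 0.0300, edgeR, and 0.442 without control replicate 1). Tns1 was at 6.80 and 2.17 CPM in the control libraries, at 1.23, 0.90 and 0.14 CPM in KO1 and at 0.34, 0.38, 2.76 and 0.12 CPM in KO2. One KO2 library was above the lower control library, and the others were below both. The log2 fold change of Tns1 was -2.41 (standard error 0.93, adjusted p = 0.110, edgeR), and the two-sided exact permutation test over libraries gave p = 0.0556, where 0.0278 is the smallest that the 36 splits allow. Over the settings tried, the adjusted p of Tns1 ran from 0.0311 to 0.640.

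Gene lists written for this cell type were read by how many members carry a promoter peak, next to 7.70% of protein-coding genes. That share was 12.2% among protein-coding genes with 5 or more annotated transcripts. The lists were not matched for transcript number, so a share above 7.70% shows nothing particular to a list. Of 55 DNA replication genes 7 did (12.7%, interval 6.3 to 24.0%), and all 7 were tested. Of the 7, 5 were higher in KO cells and none lower, next to 42 higher and none lower of the 55 in the whole list, with median log2 fold changes of 1.41 and 1.30. Mcm5, a helicase subunit, rose from 168 and 199 CPM to 341 to 593 CPM (log2 fold change 1.41, peak score 192.3), Pold1, the catalytic subunit of polymerase delta, by 1.66 (score 157.4), Topbp1, an activator of the replication checkpoint, by 1.08 and Mcm10, a replication initiation factor, by 1.43. Of 49 focal adhesion and actin genes 9 had a promoter peak (18.4%, interval 10.0 to 31.4%), and 1 of the 9 was called, next to 7 higher and 7 lower of the 47 tested in the whole list and 22.6% of all genes. This was Actn4, the gene of the actin crosslinker alpha-actinin 4, which rose from 368 and 371 CPM to 566 to 844 CPM (log2 fold change 0.90). Fscn1, the gene of the actin bundler fascin, had the highest score of the list, 128.3, and a log2 fold change of 0.40 (adjusted p = 0.197, edgeR). The kinase gene Ilk had -0.60 (adjusted p = 0.447, edgeR), at 1.38 and 0.52 CPM in the control libraries and 0.39 to 1.22 CPM in the KO libraries. Ilk overlaps Rrp8 and Taf10 on the opposite strand, so its counts are uncertain.

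Of 487 zinc finger genes 39 had a promoter peak (8.0%), and 7 of the 34 tested were lower and none higher, next to 66 lower and 15 higher of 397 in the list. Zfp827, with a peak of 330.4, fell by 0.80, Zc3h15 by 0.45, and Zfp870 and Zfp771 had log2 fold changes of -0.46 and -0.25 with no call. Of 78 mitochondrial ribosomal protein genes 4 had one, and Mrps6 (log2 fold change 1.74) and Mrpl13 (0.49) were higher, next to 25 higher and 2 lower of the 76 tested in the list. Reads of Mrps6 may not be told apart from those of Slc5a3, which lies within it on the same strand. Mrpl13 overlaps Mtbp on the opposite strand, so its counts are uncertain too. Mrps17 had 0.33 and Mrpl50 -0.20, neither called. Of 44 proteasome genes 2 had one, Psmd11, which rose by 0.51, and Psmd8, at 0.28 with no call, next to 17 higher and none lower of the 42 tested in the list. Of 40 mitosis and spindle genes 2 had one, Cenpe (0.62) and Ect2 (0.02), neither of them called, next to 17 higher and none lower of the 40 tested in the list (median log2 fold change 0.63). Among 85 cytosolic ribosomal protein genes Rpl8 alone had a promoter peak (log2 fold change 0.23, not called). Of 39 genes of the Hox clusters 2 had one, Hoxb5, not tested, and Hoxa9, which fell by 0.77. Of 54 keratin genes 4 had one, Krt5, Krt12, Krt13 and Krt75, and Krt13 alone was tested and not called.

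Receptor and histone genes were also among the promoter-peak genes. Of 1435 olfactory and vomeronasal receptor genes 66 had a promoter peak (4.60%, interval 3.63 to 5.81%), led by Olfr958 at a score of 315.5, Olfr1302 at 283.7, Vmn1r8 at 222.5 and Olfr70 at 215.8, and none of the 66 had enough counts to be tested. Of 70 histone genes 7 had one, and all 7 encode histone H2B. They were Hist1h2bg, Hist1h2bc, Hist1h2bn, Hist1h2bj, Hist1h2bh, Hist1h2bl and Hist1h2bk on chromosome 13, with scores of 117.7 to 182.5. Each of the 7 peaks holds the same 11 bases of oligo 6, AGAAGGACGGC, on the strand of the oligo in 5 peaks and on the other in 2. H2B genes are near-identical in their coding sequence, so reads may not have been placed on the right copy. Hist1h2bg and Hist1h2bc were tested, at log2 fold changes of -0.40 and 0.01 with no call.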

How the data were processed

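RNA-seq and ChIRP-seq of 4T1 and NDL cells were analysed. Polyadenylated RNA was read, mapped by the authors with STAR to the GRCm38 genome and assigned to GENCODE vM5 genes by HTSeq, and the deposited values are raw counts. For ChIRP-seq the authors mapped reads with Bowtie2, called peaks over the Ppib pulldown with HOMER's script for replicated samples and annotated them with GENCODE vM16, and the deposited value is the HOMER peak score. The scaling of the score and the strand setting of the counting are not stated in these sources. Each line of KO2 replicate 2 is listed 3 times and was used once. Between 33.9 and 37.0% of the counts of a library were not assigned to a gene and were left out. They cover reads outside genes, ambiguous reads, and reads with low quality, no alignment or no unique alignment.

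Members and gene lists were chosen with earlier results of these data known. Genes named are those of the 20 highest promoter peaks, the 8 called genes that rose and the 8 that fell most (mean of at least 1 CPM, no overlap, same sign in both clones), those of the 10 highest peaks in all lists, up to 4 genes a list by score, and genes the study names. Counts were fitted with edgeR 4.0.16 in R 4.3.3 (TMM, filterByExpr, quasi-likelihood test, Benjamini-Hochberg adjustment over all genes, threshold 0.1), KO1 and KO2 in a fit with 3 groups. The standard error is the log2 fold change over the root of the F statistic. The study's tool, DESeq2 1.42.0, was an alternative. The permutation test used log2(CPM + 1). The fit was tested on simulated data. CPM uses TMM library sizes, and RPKM divides it by the exon length of GENCODE vM21. Overlaps and sequences were computed with pysam 0.24.0 under Python 3.11.15, oligo sequences were taken from the study's supplement and all other sequences from RefSeq's GRCm38.p6 genome. Promoter windows of 500 bp were centred 345 bp upstream of the outermost start site of each gene, the offset of the promoter peaks. They were kept where no peak of the list lay near that site, so a gene with a peak at an internal start site can be among them. Regions and windows with unknown bases were left out. Other settings tried were RLE size factors, other count filters, a threshold of 0.05, the replicate number as a block, leaving out each library, other gene assignments, scores of at least 100, other overlaps and other match lengths. ChIRP-seq reads and depths were not analysed here. The result of 1 gene list is not reported here.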

Additional observations from a re-analysis of the deposited data

Results flagged for a closer look

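Of 54 named promoter-peak genes that were tested, 14 differed between the KO1 and KO2 clones at an adjusted p under 0.1 (edgeR, 3-group fit). Of all genes tested 19.6% differed so, and of the promoter-peak genes 22.0%. Some of the 54 were named for large changes between KO and control. The values given here are the log2 difference KO1 minus KO2. Slc7a11 (1.81), P2rx3 (2.59) and Gpt2 (1.83), which fell in both clones, were higher in KO1, and so were Dmd (2.08), Ung (0.61) and Mcm10 (0.69), which rose in both. Thap6 (1.00) and Zfp771 (0.92) were higher in KO1 too. Lower in KO1 were Cubn (-1.53) and Mrps6 (-1.06), which rose in both clones, Ptbp3 (-0.38), which fell in both, and Ak5 (-2.27), Hist1h2bg (-1.71) and Hist1h2bc (-1.32). Each clone is a single line, so clone and deletion cannot be told apart.

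In 3 genes 1 of the 4 KO2 libraries stood apart, with a gap to its nearest neighbour of 0.90 of the range in Tns1, 0.88 in Cubn and 0.84 in Psmd8, above Dixon's critical value for 4 samples. Chance gives about 1 in 20 groups. For Tns1 this was KO2 replicate 3, at 2.76 CPM, and for Cubn KO2 replicate 1, at 21.4 CPM, and for Psmd8 KO2 replicate 2, at 230 CPM.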

How the results depend on the processing

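The count of called promoter-peak genes, 286, was 437 in the 3-group fit (35.3%, next to 33.1% of all genes), 190 at a threshold of 0.05 (15.4%, next to 14.9%), 95 for peaks with a score of at least 100 and 44 for peaks in all lists, the last 2 with fewer genes tested (369 and 171). The share called was 25.7% in both, next to 22.6% of all genes. With the replicate number as a block it was 173 (13.99%, next to 12.99%). The deviations of same-numbered libraries from their group means had correlations of -0.196 to 0.056. With 2 to 4 libraries in a group these values cannot decide whether the numbers mark a pairing. Leaving out a library gave 39 to 338, the lowest without a control library. DESeq2 gave 354 (27.4%, next to 26.0%), omitting the low-count filter 243 (13.3%, next to 10.4%), asking for 10 counts in each library 260 (25.2%, next to 26.2%), RLE size factors 288 (23.3%, next to 22.6%) and the annotated transcript's gene 290 (23.3%, next to 22.6%).

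Overlap with the even list moved to 75.9% at a score of at least 100 and to 63.1% without chromosomes 2 and 3, that with the odd list to 54.0% and that with the NDL list to 79.0% at that score. The share with an oligo match was 64.6% at 10 bases, 4.61% at 14 and 40.9% at that score, the share with a TGG run 7.86% at 3 repeats and 1.47% at 6. Detection in control cells was 44.8% at 0.5 CPM and 46.4% at 10 counts in both libraries.

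Among named genes without a call, 5 changed sign. Leaving out a library moved Ilk from -1.13 to 0.29, Ect2 from -0.095 to 0.17, Hist1h2bg from -0.79 to 0.12 and Hist1h2bc from -0.41 to 0.21. Hist1h2bc was also -0.22 in the 3-group fit, -0.0013 with 10 counts asked for in each library and -0.50 with the block, and Krt13 was -0.37 with the block. The cause was not tested. The 16 genes that rose or fell most were chosen for large changes, no overlap between KO and control libraries and the same direction in both clones. That no direction reversed in them was therefore largely fixed by this choice. Among the 16 genes that rose or fell most, no setting reversed a direction, and 18 of 32 values without a control library, 2 of 112 without a KO library, 5 of 16 with the block and 1 of 75 under the other settings lost the call.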
